A study of Homo sapiens with 9 samples.

Results

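The 43 genes described here encode enzymes that add methyl groups to histone lysines, enzymes that remove them, and subunits of the Polycomb complexes. They were chosen by name from the symbols matched to the 26240 rows of the count table, each had exactly 1 row, and all 43 had enough counts to be tested. By role, 11 belong to H3K4 methylation and its COMPASS complexes, 6 to H3K36 and H3K79 methylation, 4 to H3K9 methylation, 5 to Polycomb repressive complex PRC2, 8 to Polycomb repressive complex PRC1, and 9 are demethylases. RNA sequencing had been done on definitive endoderm, the germ layer that gives rise to gut, liver and pancreas, made in culture from H9, an established human embryonic stem cell line. CHD7, a gene for an ATP-dependent chromatin remodeller, had been deleted with CRISPR/Cas9, and the question was how endoderm differs when 1 or both copies are mutated. The groups were wild-type cells (CHD7+/+), heterozygous mutants (CHD7+/-) and homozygous mutants (CHD7-/-), with 3 libraries each, and all 9 libraries share the H9 background and the endoderm label. The labels name no clones, cultures, differentiation days or deleted interval, so every p-value reflects only how much these 9 libraries vary, perhaps for technical reasons, and a line-specific difference cannot be told apart from genotype.

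Histone lysine methylation marks chromatin states. COMPASS complexes, in which a KMT2 or SETD1 enzyme works with the shared subunits WDR5, RBBP5 and ASH2L, place methyl groups on H3K4 at promoters and enhancers, while H3K36 and H3K79 methylation accompany transcription and H3K9 methylation marks heterochromatin. PRC2 methylates H3K27 and PRC1 ubiquitinates H2A, and together they keep developmental genes silent in stem cells until lineage genes are switched on. Demethylases of the KDM families remove these marks, each with its own preferred residues.

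Promoters are shown for the 4 members that fell in homozygous cells, as the stretches of DNA at which their transcription starts. The windows run from 250 bases before to 50 bases after the transcription start, on the gene's own strand, and come from RefSeq on GRCh38.p14. Capitals mark CG dinucleotides, the sites of DNA methylation. The windows are chr10:22320849-22321148 on the plus strand for BMI1, chr9:6757723-6758022 on the plus strand for KDM4C, chr1:185045308-185045607 on the plus strand for RNF2 and chr4:139556170-139556469 on the minus strand for SETD7.
BMI1: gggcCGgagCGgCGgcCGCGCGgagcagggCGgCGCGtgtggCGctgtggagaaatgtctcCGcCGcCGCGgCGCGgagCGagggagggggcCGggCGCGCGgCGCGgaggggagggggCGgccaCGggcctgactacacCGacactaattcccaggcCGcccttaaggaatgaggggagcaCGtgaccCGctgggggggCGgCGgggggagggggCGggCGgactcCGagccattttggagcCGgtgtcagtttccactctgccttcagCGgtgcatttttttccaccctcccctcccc
KDM4C: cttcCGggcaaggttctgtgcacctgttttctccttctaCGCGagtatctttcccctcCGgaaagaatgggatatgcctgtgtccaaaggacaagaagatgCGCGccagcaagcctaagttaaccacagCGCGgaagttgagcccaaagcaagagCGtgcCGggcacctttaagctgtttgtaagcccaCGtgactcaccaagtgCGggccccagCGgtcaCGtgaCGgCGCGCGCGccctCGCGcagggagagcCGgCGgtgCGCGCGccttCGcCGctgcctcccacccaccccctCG
RNF2: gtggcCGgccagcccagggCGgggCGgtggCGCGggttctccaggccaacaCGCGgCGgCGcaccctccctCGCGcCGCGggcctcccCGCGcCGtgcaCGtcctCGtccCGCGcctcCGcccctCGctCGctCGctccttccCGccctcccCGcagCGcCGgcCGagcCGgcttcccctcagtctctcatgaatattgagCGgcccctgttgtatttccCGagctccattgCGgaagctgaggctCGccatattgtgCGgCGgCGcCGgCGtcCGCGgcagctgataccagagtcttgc
SETD7: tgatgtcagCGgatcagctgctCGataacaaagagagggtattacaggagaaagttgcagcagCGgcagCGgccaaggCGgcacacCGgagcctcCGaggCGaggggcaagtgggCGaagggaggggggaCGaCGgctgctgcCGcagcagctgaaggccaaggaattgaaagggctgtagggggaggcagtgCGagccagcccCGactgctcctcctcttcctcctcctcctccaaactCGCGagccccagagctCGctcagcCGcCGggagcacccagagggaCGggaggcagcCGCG
The windows hold 36 CG dinucleotides in BMI1, 29 in KDM4C, 41 in RNF2 and 22 in SETD7. In the GENCODE annotation the windows of KDM4C and SETD7 lie inside the gene, downstream of its outermost annotated start, so other starts may be used in these cells. The BMI1 window ends before the annotated start of BMI1 (22321211), and the annotated start of RNF2 (185045364) lies within the RNF2 window. Of the 43 members, 37 had a promoter entry, 9 of them more than 1, of which the most upstream was read. The median was 30 CG dinucleotides per window against 14 over all 35116 promoters of the table, and 33 of the 37 had at least 15, against 48.9% of all promoters. Letters were searched on both strands. GGGCGG, the GC box, was found in 27 of 37 member promoters (73.0%, against 45.0% of all promoters). TATAAA was found in 1 (2.7% against 11.5%), CCAAT in 10 (27.0% against 34.6%), CACGTG in 6 (16.2% against 7.26%) and CCGGAA in 8 (21.6% against 17.2%). Among the 4 shown, BMI1 holds 6 GC boxes and 1 CACGTG, RNF2 4 GC boxes, KDM4C 2 CACGTG and 2 CCGGAA, and SETD7 none of these letters. Such matches describe the letters of the window only.

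CHD7 was read first as a check of the labels. Its level, in counts scaled to library size (CPM), was 194.9, 194.9 and 189.2 in the wild-type libraries (replicates 1 to 3), 110.4, 130.5 and 129.2 in the heterozygous ones and 56.08, 42.97 and 55.49 in the homozygous ones. The genotypes did not overlap, and each library ranked as labelled, with transcript still counted in homozygous cells. Library totals ran from 11854173 counts in homozygous replicate 1 to 37519729 in wild-type replicate 1. Endoderm markers were present in all libraries: the 14 genes of that list summed to 11730 to 12590 CPM in wild-type, 9914 to 10920 CPM in heterozygous and 8110 to 9185 CPM in homozygous libraries. Most of that sum was CER1, with means of 7245, 6124 and 4630 CPM. With homozygous set against wild-type cells, 1 of the 14 rose (FOXA3), 5 fell (FOXA1, FOXA2, CER1, HHEX and MIXL1) and 8, among them SOX17, CXCR4 and GATA6, did not pass the test. Other marker sums also moved with genotype: 7 trophoblast and amnion genes summed to 10.1 to 12.8, 13.5 to 14.0 and 23.5 to 31.4 CPM, and 8 mesoderm genes to 49.2 to 67.4, 36.6 to 46.7 and 23.3 to 40.8 CPM, in wild-type, heterozygous and homozygous libraries. The first of these sums was mostly TFAP2C (means 9.71, 12.1 and 22.6 CPM), only 3 of its 7 genes having enough counts to be tested, and the second mostly KDR (48.6, 33.6 and 23.5 CPM). The 10 pluripotency genes summed to 3910 to 4014, 3604 to 3931 and 3450 to 3637 CPM and the 20 proliferation genes to 2414 to 2553, 2251 to 2874 and 2455 to 2694 CPM, in the same order. LIN28A and TDGF1 made up most of the pluripotency sum, while POU5F1 had means of 69.6, 159 and 89.98 CPM and NANOG 10.4, 13.2 and 4.22 CPM. The 10 neuroectoderm and neural crest genes, mostly NES, summed to 386 to 427, 344 to 406 and 336 to 383 CPM. No marker with a row was at 0 in all libraries. The part of these cell populations in the values below was not tested. In bulk samples, fewer cells of a type and less RNA per cell cannot be told apart.

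In homozygous against wild-type cells, 1 of the 43 genes rose and 4 fell. ASH2L, the COMPASS core subunit, was the one that rose, by 37.6%. The falls were of the demethylase KDM4C (fell by 48.3%), the PRC1 subunit BMI1 (fell by 47.3%), the methyltransferase SETD7 (fell by 36.2%) and the PRC1 ubiquitin ligase RNF2 (fell by 23.4%). Calls are from edgeR's quasi-likelihood test with a Benjamini-Hochberg adjusted p below 0.05. Over all 16837 genes tested, 7.68% were called, 3.5% up and 4.18% down, against 5 of 43 here (11.6%). An unadjusted p below 0.05 was found for 10 of the 43 (23.3%), against 23.2% of all genes. The median log2 fold change of the 43 was -0.02, and 0.01 over all genes. The median size of the change was 0.13 for these genes and 0.20 over all genes. The 95% interval of the fold change lay within 1.5-fold in either direction for 37 of the 43 (86.0%), against 8575 of the 16837 genes (50.9%). Interval width and the size of a change depend on counts. Each member had at least 57 counts in every library, and all genes tested were not matched to the members for counts. Library ranges of the 2 genotypes did not overlap for 14 members, 8 of them higher and 6 lower in homozygous cells; over all tested genes the share was 28.9%, against 32.6% here. Tested against a change of 1.5-fold instead of none (glmTreat), all 5 calls ended: the adjusted p was 0.204 for KDM4C, 0.584 for BMI1 and 1 for SETD7, ASH2L and RNF2.

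**Figure D1:**
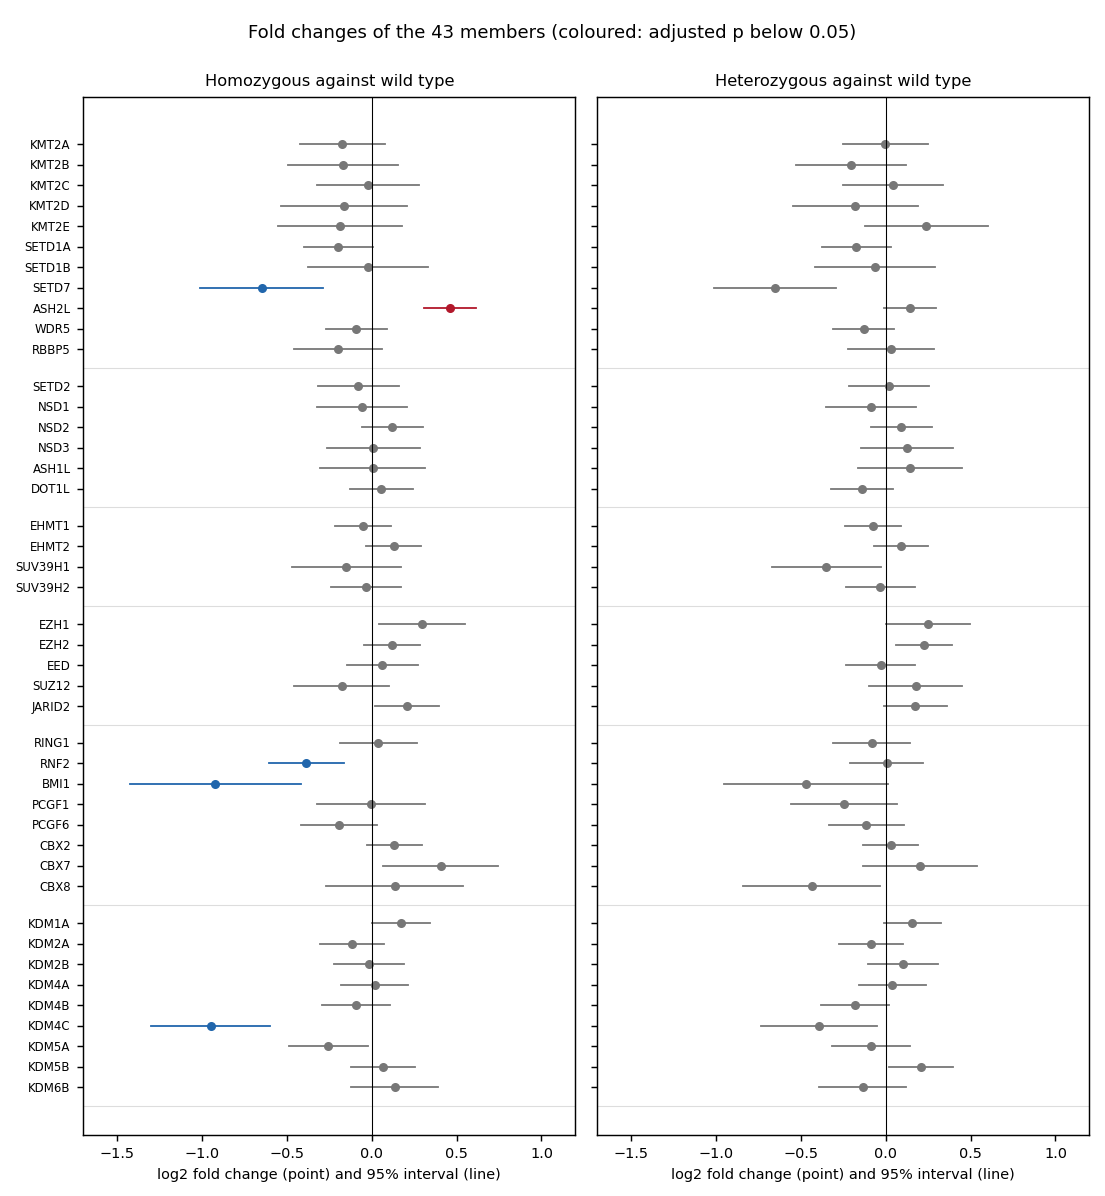
Log2 fold changes of the 43 genes, grouped by role, with homozygous (left) and heterozygous cells (right) each against wild type; points are fold changes, lines 95% intervals, and colour marks an adjusted p below 0.05. In the left panel KDM4C, BMI1, SETD7 and RNF2 lie to the left of 0 and ASH2L to the right, and in the right panel no gene is coloured.

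The heterozygous comparison gave no call among the 43 genes. In edgeR's test 0 of 43 were called, where 1.86% of all genes were, 0.82% up and 1.04% down; 7 of the 43 had an unadjusted p below 0.05 (16.3%, against 13.5% of all genes). DESeq2 called 1, SETD7 (adjusted p = 0.0127), and limma-voom called 0. The median log2 fold change was -0.03 (0.00 over all genes) and the median size 0.135 (0.142 over all genes). Ranges did not overlap for 9 members, 4 higher and 5 lower, or 20.9%, against 22.2% of all genes. In homozygous against heterozygous cells 1 of 43 was called, ASH2L, where 2.21% of all genes were, 0.986% up and 1.22% down; 8 of the 43 had an unadjusted p below 0.05 (18.6%, against 18.3% of all genes). Ranges did not overlap for 5 members (11.6%, against 19.5% of all genes). In each of these comparisons the 95% interval lay within 1.5-fold for 37 members (86.0%). Over all genes, again not matched for counts, the share was 58.3% in heterozygous against wild-type cells and 53.4% between the mutants. DESeq2 and limma-voom called 0 genes of H3K36 and H3K79 methylation, H3K9 methylation and PRC2 in any comparison. Of all 16837 genes, DESeq2 called 1765 and limma-voom 1325 in homozygous against wild-type cells. In heterozygous against wild-type cells they called 574 and 334, and between the mutants 849 and 353. The comparisons share libraries with each other, so their values stand side by side and support nothing jointly.

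Among the 11 genes of H3K4 methylation, the core subunit ASH2L rose and SETD7 fell in homozygous against wild-type cells, and 9 did not pass the test. ASH2L, which stimulates the methyltransferase of every COMPASS complex, lies on chromosome 8 (38105242 to 38144076, plus strand, GRCh38, GENCODE release 29). ASH2L stood at 219, 229 and 228 CPM in wild-type replicates 1 to 3, at 237, 258 and 251 CPM in heterozygous replicates and at 308, 299 and 322 CPM in homozygous replicates. No library of any genotype overlapped another genotype, with wild type lowest and homozygous highest. Homozygous exceeded wild-type cells by 0.46 on the log2 scale (SE 0.07, edgeR adjusted p = 0.00151), with all 3 homozygous libraries above the wild-type range. Heterozygous cells had a value of 0.14 against wild type and did not pass the test (SE 0.07, adjusted p = 0.407). Homozygous lay above heterozygous cells by 0.32 (SE 0.07, adjusted p = 0.0373, edgeR). The first of these calls held in all 9 fits that left out 1 library, with an adjusted p of 0.00131 to 0.0124. Of the same 9 fits, the last call held only without homozygous replicate 2 (0.0447). Without wild-type replicates 1, 2 and 3 its adjusted p was 0.0611, 0.0842 and 0.085, and without heterozygous replicates 0.101, 0.103 and 0.0601. Without homozygous replicate 1 it was 0.0789, without homozygous replicate 3 0.0795, and in the fit of the 6 libraries alone 0.129. Over all 20 alternatives this call was kept in 9, among them the other scalings and filters, DESeq2, limma-voom and the length offset. The gene overlaps STAR on the opposite strand and has pseudogenes that can share its reads; whether counting used strand is not stated.

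SETD7, which places a single methyl group on H3K4 and also methylates other proteins, lies on chromosome 4 (139495941 to 139606699, minus strand). SETD7 stood at 93.7, 105 and 100.1 CPM in wild-type replicates, 58.1, 65.1 and 67.2 CPM in heterozygous replicates and 62.4, 45.2 and 83.8 CPM in homozygous replicates. Both mutant groups lay below every wild-type library, while homozygous libraries spread across and beyond the heterozygous range. Against wild type, SETD7 changed by -0.65 on the log2 scale in homozygous cells (SE 0.17, edgeR adjusted p = 0.0326) and had a value of -0.65 in heterozygous cells (SE 0.17, adjusted p = 0.0756). Between the mutant groups the value was 0.00 (95% interval -0.36 to 0.37). The homozygous call was lost without wild-type replicates 1, 2 and 3 (adjusted p = 0.0571, 0.129 and 0.0965), heterozygous replicate 2 (0.0583), homozygous replicates 1 and 2 (0.103 and 0.0566), and in the fit of the 6 libraries alone (0.061). Heterozygous cells were called without homozygous replicates 2 and 3 (0.00546 and 0.00674), and in the fit of their own 6 libraries (0.00132).

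The other 9 genes of this role ran from -0.20 to -0.02 on the log2 scale, wild-type against homozygous levels being given below in that order. SETD1A, a catalytic subunit of the broadly acting COMPASS complex, had means of 85.9 and 74.9 CPM in these groups (-0.20, adjusted p = 0.229). KMT2D, the enzyme of enhancer H3K4 methylation, had 216 ± 13.6 CPM (wild type) and 193 ± 49.6 CPM (homozygous; SD, n = 3), so its libraries spread more than the groups differed. WDR5, the scaffold next to ASH2L in COMPASS, had 94.6 and 88.7 CPM (-0.09, adjusted p = 0.537), and RBBP5, the partner that forms a dimer with ASH2L, 27.4 and 23.9 CPM (-0.20, adjusted p = 0.348). ASH2L was called and these partner subunits were not, and the difference between them was not tested.

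**Figure D2:**
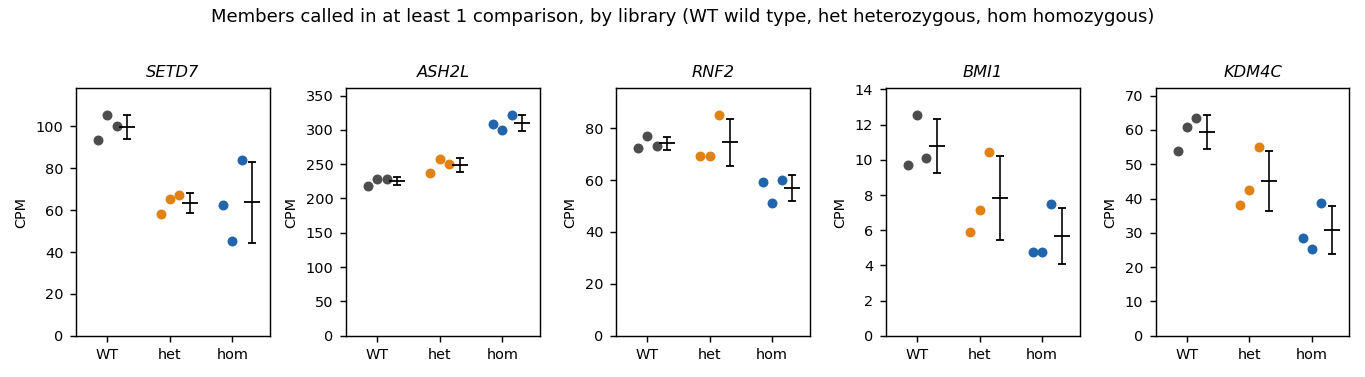
CPM of the 5 called genes in each library, dots by genotype in replicate order, with mean and SD beside them and axes from 0. Homozygous libraries of ASH2L lie between 299 and 322 CPM, above all others, and those of KDM4C between 25.2 and 38.6 CPM, below all wild-type libraries.

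Of the 6 genes of H3K36 and H3K79 methylation, 0 were called in any comparison by edgeR, and the log2 fold changes in homozygous against wild-type cells ran from -0.08 to 0.12. The intervals of all 6 lay within 1.5-fold in every comparison, and 1 of the 6 had an unadjusted p below 0.05, DOT1L between the mutants. DOT1L, the H3K79 methyltransferase on chromosome 19 (2164149 to 2232578, plus strand), stood at 109.7, 112 and 112 CPM in wild-type, 97.3, 103 and 102 CPM in heterozygous and 114, 104.5 and 129 CPM in homozygous libraries. All heterozygous libraries lay below those of both other genotypes. The log2 value was 0.20 for homozygous against heterozygous cells (SE 0.09, adjusted p = 0.248) and -0.14 for heterozygous cells against wild type (SE 0.08, adjusted p = 0.521), and neither passed the test. Its exons overlap PLEKHJ1 on the opposite strand. NSD2, an H3K36 dimethyltransferase on chromosome 4 (1871424 to 1982207, plus strand), stood at 177, 169 and 163 CPM in wild-type, 176, 196 and 171 CPM in heterozygous and 199, 173 and 183 CPM in homozygous libraries. These ranges overlapped between all genotypes (homozygous against wild type 0.12, SE 0.08, adjusted p = 0.407). SETD2, which trimethylates H3K36 behind RNA polymerase, had mean levels of 105, 106 and 99.5 CPM, and NSD1, another H3K36 dimethyltransferase, 307, 289 and 295 CPM, in wild-type, heterozygous and homozygous cells. NSD3, whose gene lies 125621 bases from ASH2L, had a value of 0.01 in homozygous against wild-type cells (SE 0.13, adjusted p = 0.974).

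None of the 4 H3K9 methyltransferases was called by edgeR in any comparison, 1 having an unadjusted p below 0.05 in heterozygous against wild-type cells. That gene was SUV39H1, which trimethylates H3K9 in pericentric heterochromatin and lies on chromosome X (48695554 to 48709012, plus strand). SUV39H1 stood at 18.6, 24.4 and 25.5 CPM in wild-type, 18.9, 17.1 and 17.7 CPM in heterozygous and 17.4, 19.2 and 24.8 CPM in homozygous libraries. Wild-type replicate 1 lay within the heterozygous range (heterozygous against wild type -0.35, SE 0.15, adjusted p = 0.323). EHMT2, also known as G9a, which dimethylates H3K9 in euchromatin, lies on chromosome 6 (31879759 to 31897687, minus strand). EHMT2 stood at 72.7, 72.0 and 77.1 CPM in wild-type, 81.7, 78.3 and 76.3 CPM in heterozygous and 79.1, 83.2 and 80.3 CPM in homozygous libraries. Each homozygous library lay above each wild-type library (0.13, SE 0.07, adjusted p = 0.323). Both genes overlap an annotated gene on the opposite strand. EHMT1, the partner of EHMT2, and SUV39H2, the paralog of SUV39H1, had values of -0.05 and -0.03 on the log2 scale in homozygous against wild-type cells (adjusted p = 0.724 and 0.869).

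The 5 PRC2 genes likewise gave 0 calls by edgeR in the 3 comparisons, with 2 at an unadjusted p below 0.05 in either mutant against wild type and 1 between the mutants. EZH2, the main H3K27 methyltransferase of dividing cells, lies on chromosome 7 (148807383 to 148884321, minus strand) and stood at 47.5, 49.5 and 45.2 CPM in wild-type, 56.5, 56.1 and 53.7 CPM in heterozygous and 51.3, 52.3 and 51.0 CPM in homozygous libraries. The 3 genotypes did not overlap, heterozygous libraries being highest. Relative to wild type, heterozygous cells had a log2 value of 0.23 (SE 0.08, adjusted p = 0.198) and homozygous cells one of 0.12 (SE 0.08, adjusted p = 0.378), neither passing the test. SUZ12, the subunit that holds the PRC2 core together, lies on chromosome 17 (31937018 to 32001045, plus strand). Its libraries stood at 38.01, 36.01 and 31.6 CPM in wild-type, 34.9, 38.7 and 46.1 CPM in heterozygous and 34.8, 26.9 and 32.3 CPM in homozygous cells. Homozygous lay below heterozygous libraries by a narrow gap, and wild type overlapped both (homozygous against heterozygous -0.35, SE 0.13, adjusted p = 0.175). EZH2 and SUZ12 have pseudogenes that can share their reads. EZH1, the EZH2 paralog of non-dividing cells, stood at a mean of 13.0, 15.4 and 15.9 CPM, and JARID2, which helps recruit PRC2 to its targets, at 140.5, 159 and 162 CPM, in wild-type, heterozygous and homozygous cells. Both had homozygous libraries above all wild-type libraries without passing the test (EZH1 0.30, adjusted p = 0.145; JARID2 0.21, adjusted p = 0.173). EED, the subunit that reads methylated H3K27, had a value of 0.06 (SE 0.10, adjusted p = 0.735) in homozygous cells on the same scale.

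**Figure D3:**
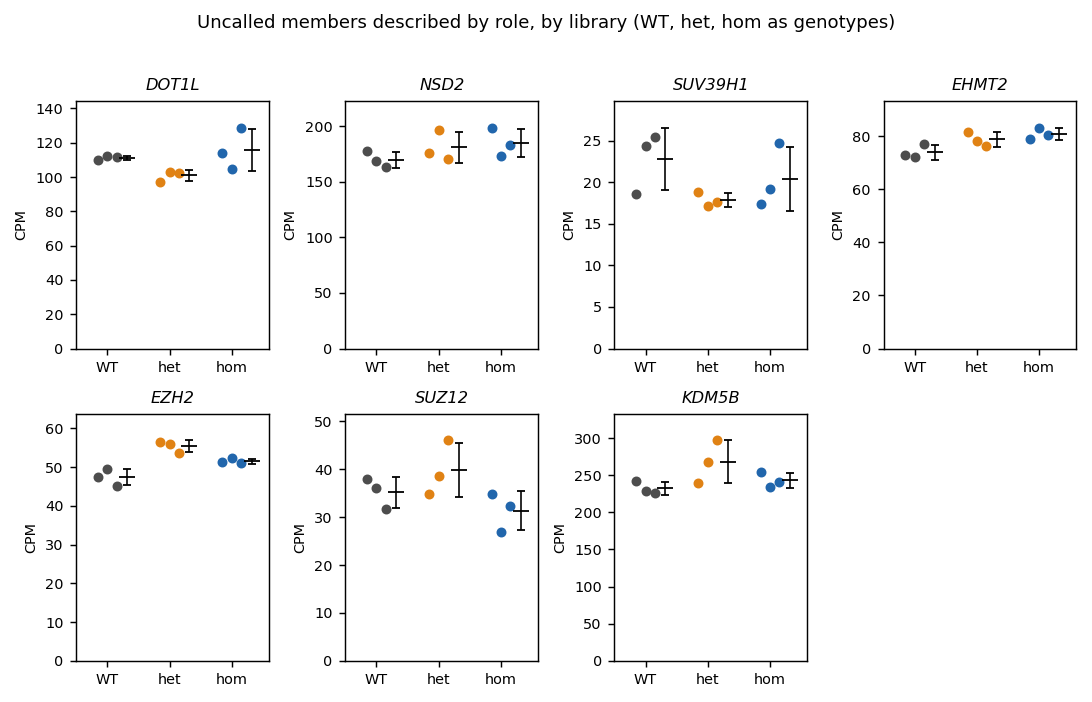
CPM in each library of the 7 uncalled genes described for their roles, dots by genotype in replicate order, with mean and SD beside them and axes from 0. Heterozygous libraries are lowest for DOT1L (97.3 to 103 CPM) and highest for EZH2 (53.7 to 56.5 CPM), and no gene passed the test.

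Of the 8 PRC1 genes, BMI1 and RNF2 fell in homozygous against wild-type cells and 6 were not called. RNF2, also called RING1B, is the ubiquitin ligase that modifies H2A, and lies on chromosome 1 (185045364 to 185102608, plus strand). RNF2 stood at 72.4, 77.1 and 73.1 CPM in wild-type, 69.1, 69.3 and 85.2 CPM in heterozygous and 59.4, 51.3 and 60.1 CPM in homozygous libraries. Homozygous libraries were below those of both other genotypes, which overlapped. Compared with wild type the log2 value was -0.38 in homozygous cells (SE 0.10, edgeR adjusted p = 0.0358) and 0.01 in heterozygous cells (95% interval -0.21 to 0.22, adjusted p = 0.991). From heterozygous to homozygous cells it was -0.39 (SE 0.10, adjusted p = 0.0687), which DESeq2 called (adjusted p = 0.0211) and limma-voom did not (0.0721). The call was lost without wild-type replicates 1, 2 and 3 (adjusted p = 0.0743, 0.168 and 0.104), heterozygous replicate 2 (0.0564), and homozygous replicates 1 and 2 (0.0759 and 0.122). RNF2 has a pseudogene, and its paralog RING1, the alternative ligase of PRC1, had means of 22.4, 21.2 and 23.1 CPM in wild-type, heterozygous and homozygous cells (homozygous against wild type 0.04, SE 0.10, adjusted p = 0.857).

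BMI1, a PCGF subunit of canonical PRC1 that represses the CDKN2A locus, lies on chromosome 10 (22321211 to 22331484, plus strand). Its counts were low, at 9.68, 12.6 and 10.1 CPM in wild-type, 5.89, 7.13 and 10.5 CPM in heterozygous and 4.76, 4.77 and 7.48 CPM in homozygous libraries. All homozygous libraries lay below all wild-type libraries, and heterozygous replicate 3 lay within the wild-type range. Homozygous cells changed by -0.92 on the log2 scale (SE 0.23, edgeR adjusted p = 0.0292), heterozygous cells had -0.47 (SE 0.22, adjusted p = 0.384), both against wild type, and the value was -0.45 (SE 0.24, adjusted p = 0.324) between the mutants. The call was lost without wild-type replicates 2 and 3 (adjusted p = 0.138 and 0.0692) and without homozygous replicates 1 and 2 (0.104 and 0.12). BMI1 overlaps the readthrough gene COMMD3-BMI1, not analysed here, and has a pseudogene, so its reads could be shared. PCGF1 and PCGF6, which take the place of BMI1 in variant PRC1 complexes, had log2 values of -0.01 and -0.19 in homozygous cells (adjusted p = 0.984 and 0.287). PCGF2, another PCGF subunit, is among the other pathway genes. Its means were 49.7, 48.9 and 49.6 CPM in wild-type, heterozygous and homozygous cells (homozygous against wild type -0.005, edgeR adjusted p = 0.978). The chromodomain subunits, which bind methylated H3K27, did not pass the test: CBX2 had 120.2 ± 3.27 and 132 ± 8.22 CPM in wild-type and homozygous cells, CBX7 7.09 ± 0.940 and 9.50 ± 1.47 CPM (0.41, adjusted p = 0.14), and CBX8, whose gene lies 4149 bases from CBX2, 7.01 ± 1.005 and 7.57 ± 1.90 CPM (SD, n = 3 each).

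Among the 9 demethylases KDM4C fell in homozygous against wild-type cells and 8 were not called. KDM4C, which removes methyl groups from H3K9 and H3K36, lies on chromosome 9 (6720863 to 7175648, plus strand). KDM4C stood at 53.9, 60.9 and 63.5 CPM in wild-type, 38.2, 42.6 and 55.02 CPM in heterozygous and 28.5, 25.2 and 38.6 CPM in homozygous libraries. All homozygous libraries were below all wild-type libraries, and heterozygous libraries lay between, overlapping the edge of each. With wild type as reference, homozygous cells changed by -0.95 (log2 scale, SE 0.16, edgeR adjusted p = 0.00303) and heterozygous cells had -0.39 (SE 0.16, adjusted p = 0.298), with -0.56 (SE 0.16, adjusted p = 0.101) between the mutants. The homozygous call held in all 9 fits that left out 1 library (adjusted p 0.000424 to 0.0209). Between the mutants a call appeared without homozygous replicate 3 (-0.76, adjusted p = 0.0217) and with DESeq2 (0.0367). An unnamed gene overlaps its exons on the same strand. Its paralogs, which act on the same residues, stood at 57.1 and 57.7 CPM (KDM4A, log2 fold change 0.02, adjusted p = 0.935) and at 68.8 and 64.5 CPM (KDM4B, -0.09, adjusted p = 0.581) in wild-type and homozygous cells.

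KDM5B, an H3K4 demethylase, lies on chromosome 1 (202724495 to 202809470, minus strand) and stood at 242, 229 and 226 CPM in wild-type, 239.9, 268 and 298 CPM in heterozygous and 254, 234 and 241 CPM in homozygous libraries. The ranges of all 3 genotypes overlapped, and heterozygous cells were 0.21 above wild type (SE 0.09, adjusted p = 0.315). KDM5A, its paralog, had lower levels in every homozygous than in every wild-type library, at means of 62.1 and 74.0 CPM (-0.26, SE 0.11, adjusted p = 0.172). KDM1A, which demethylates H3K4 within the CoREST complex, was in every mutant library above the wild-type libraries, at means of 196, 219 and 222 CPM in wild-type, heterozygous and homozygous cells (homozygous 0.17, SE 0.08, adjusted p = 0.207). KDM6B, an H3K27 demethylase linked to endoderm differentiation, had 128 ± 9.70, 116 ± 13.2 and 140.3 ± 22.5 CPM (SD, n = 3) in the same order, and its homozygous interval ran from -0.12 to 0.39. KDM2A and KDM2B, which demethylate H3K36 and bind CpG islands, had log2 values of -0.12 and -0.02 in homozygous cells (adjusted p = 0.45 and 0.943).

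Levels between genes were compared per kilobase of exon, in CPM per kb, as means of 3 libraries. Exonic length was the union over all annotated transcripts of a gene, which can exceed the length of the transcript made, so the order is approximate. In wild-type cells the highest were ASH2L at 38.1, KDM1A at 36.1, WDR5 at 26.1, JARID2 at 23.4 and CBX2 at 21.1 CPM per kb. The lowest were CBX7 at 0.950, CBX8 at 1.68, EZH1 at 1.86, ASH1L, an H3K36 methyltransferase, at 2.01 and BMI1 at 2.52 CPM per kb. ASH2L, already highest on this scale, reached 52.4 CPM per kb in homozygous cells, and KDM4C went from 5.76 to 2.98 CPM per kb. The PRC2 genes between EZH1 and JARID2 were EED at 2.71, SUZ12 at 5.38 and EZH2 at 10.5 CPM per kb in wild-type cells. Between the PRC1 ligases RNF2 stood at 18.2 and RING1 at 12.3 CPM per kb in wild-type cells, and at 14.0 and 12.7 CPM per kb in homozygous cells. Summed over the 43 genes the level was 3671, 3652 and 3663 CPM in wild-type, heterozygous and homozygous cells.

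**Figure D4:**
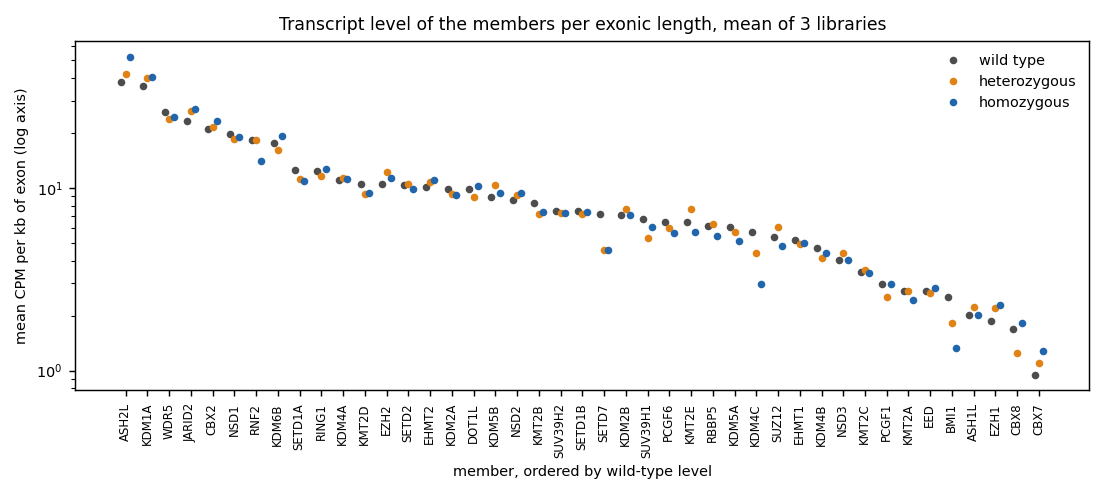
Mean CPM per kb of exon of the 43 genes on a log axis, ordered by wild-type level, with 1 dot per genotype. ASH2L is highest (38.1 in wild type and 52.4 in homozygous cells) and CBX7 lowest (0.950 in wild type).

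Spread between libraries differed between genotypes. The median coefficient of variation of the 43 genes was 3.96% in wild-type, 9.14% in heterozygous and 10.7% in homozygous cells. Over all tested genes, which were not matched to the 43 for counts, it was 7.71%, 12.2% and 14.4%. Homozygous replicate 2 was the lowest library of its genotype for 28 of the 43 genes (38.1% of all tested genes), heterozygous replicate 1 for 27 (34.6%) and wild-type replicate 1 for 23 (37.0%). Homozygous replicate 2 was lowest also for 3 of the 4 genes that fell, SETD7, RNF2 and KDM4C, and level with replicate 1 for BMI1. Gene length moved with the first 2 of these libraries. The 43 genes are long, with a median exonic length of 7289 bases against 4539 for all tested genes, and 20 of them fall among the longest 20% (at least 7855 bases). In homozygous replicate 2 the median deviation from the genotype mean, on the log2(CPM + 0.5) scale, was -0.13 for the 43 genes, -0.12 for the longest and 0.13 for the shortest 20% of tested genes. In heterozygous replicate 1 the values were -0.09, -0.08 and 0.09, and in homozygous replicate 3 they were 0.08, 0.08 and -0.08. In wild-type replicate 1 all 3 were near 0, at -0.03, -0.005 and 0.02. With an offset for gene length in each library all 5 homozygous calls were kept, at log2 fold changes of -0.89 for KDM4C, -0.92 for BMI1, -0.59 for SETD7, -0.39 for RNF2 and 0.49 for ASH2L. With the same offset SETD7 was also called in heterozygous against wild-type cells (-0.65, adjusted p = 0.014). The mean of heterozygous cells lay between the other means for 16 of the 43 genes. The share over all tested genes was not computed, so no order by CHD7 dose is read from this count.

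**Figure D5:**
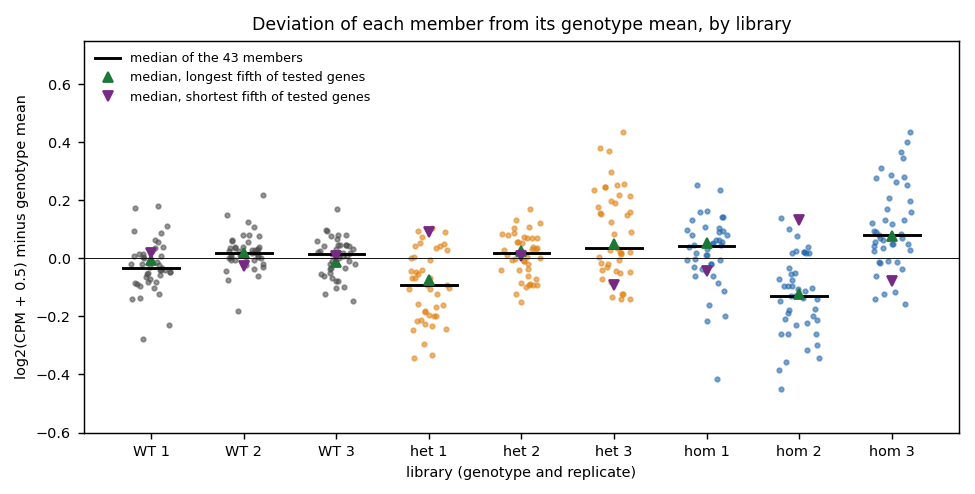
Deviation of each of the 43 genes from its genotype mean, as log2(CPM + 0.5), in each library (dots), with their median (bar) and the medians of the longest and shortest 20% of tested genes (triangles). In homozygous replicate 2 the bar and the longest genes lie near -0.13 and the shortest near 0.13.

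The other genes of these pathways were 89 listed subunits and enzymes. Of the 85 with enough counts, 0 rose and 1 fell in homozygous against wild-type cells, and 1 rose and 1 fell in heterozygous against wild-type cells. Between the mutants edgeR called 0 of them, against 2.21% of all genes. An unadjusted p below 0.05 was found there for 11 (12.9%, against 18.3% of all genes). DESeq2 called 2 between the mutants and limma-voom 0, against 849 and 353 of all 16837 genes. The calls of edgeR made up 1.18% and 2.35% of the 85 in homozygous and heterozygous cells against wild type, where 7.68% and 1.86% of all genes passed. In homozygous against wild-type cells DESeq2 and limma-voom also called 0 up, with 3 and 2 down. Over all 16837 genes they called 847 and 585 up and 918 and 740 down. The homozygous fall was of MECOM, a PR-domain transcription factor with reported H3K9 methyltransferase activity. MECOM stood at 4.61, 4.82 and 4.73 CPM in wild-type, 1.69, 2.23 and 2.46 CPM in heterozygous and 1.09, 0.927 and 2.34 CPM in homozygous libraries. Every mutant library lay below every wild-type library. MECOM changed by -1.702 on the log2 scale in homozygous cells (SE 0.30, edgeR adjusted p = 0.00336), heterozygous cells had -1.16 (SE 0.27, adjusted p = 0.0541, called by DESeq2 and limma-voom), and the homozygous call held in all 9 fits that left out 1 library. PHC1 and PHC2, polyhomeotic subunits of canonical PRC1, were called in opposite directions in heterozygous cells. PHC1, which has a pseudogene that can share its reads, stood at 43.3, 30.2 and 34.7 CPM in wild-type, 62.2, 68.9 and 48.2 CPM in heterozygous and 49.7, 44.4 and 35.8 CPM in homozygous libraries, and rose in heterozygous cells (0.73, SE 0.16, adjusted p = 0.0397). PHC2 stood at 65.0, 77.2 and 80.0 CPM in wild-type, 49.1, 47.4 and 44.0 CPM in heterozygous and 49.6, 52.2 and 70.7 CPM in homozygous libraries, and fell in heterozygous cells (-0.66, SE 0.13, adjusted p = 0.0216). Heterozygous libraries of both genes lay outside the wild-type range. The PHC1 call was lost without wild-type replicates 2 and 3 (adjusted p = 0.213 and 0.192) and heterozygous replicates 1 and 2 (0.121 and 0.2). That of PHC2 was lost without wild-type replicates 2 and 3 (0.126 and 0.125) and heterozygous replicates 1, 2 and 3 (0.0515, 0.107 and 0.0664).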

How the data were processed

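RNA was sequenced in 9 libraries of H9-derived definitive endoderm, 3 per genotype, grouped by the labels. The authors deposited 1 table of raw counts per Ensembl gene. Per the submitters' processing notes FastQC, Trimmomatic, HISAT2, SAMtools, HTSeq and hg38 were used; versions, annotation release and strand setting are not stated there or in the labels. Unstranded counting would merge overlapping genes, and ambiguous reads may have been dropped. Totals ran from 11854173 to 37519729 counts, so homozygous replicate 1 is least precise.

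In R 4.3.3, edgeR 4.0.16 filtered genes with filterByExpr (16837 tested, 9403 removed), scaled with TMM, and fitted the quasi-likelihood model to all 9 libraries with genotype as the only factor, 1 spread being shared. Tests were two-sided, adjusted by Benjamini-Hochberg over all genes tested, and called below 0.05. The common biological coefficient of variation was 0.121. SE is the size of the log2 fold change divided by the square root of F. The script was tested on simulated data. CPM uses the TMM-adjusted library size, and positions and exonic lengths are from GENCODE release 29. Replicates of a genotype differed beyond sampling noise, with a chi-square per degree of freedom of 2.55 to 30.6, and were kept as separate libraries. Library values are given for CHD7, for each member called in any comparison and, in a role with fewer than 2 such members, for those with the smallest p until 2 are described; called genes of the other pathway lists are also named. Members and lists were chosen with earlier results of these data known. Alternatives were other scalings and filters, DESeq2 1.42.0, limma-voom 3.58.1, glmTreat, a replicate block, a length offset, pairwise fits and leaving out each library.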

Additional observations from a re-analysis of the deposited data

Results flagged for a closer look

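The difference of ASH2L from wild type was not the same in the 2 mutants: its log2 fold changes against wild type were 0.46 and 0.14, and the difference of 0.32 was tested as homozygous against heterozygous (edgeR, adjusted p = 0.0373). That call was kept in 1 of the 9 fits that left out 1 library, and in 9 of all 20 alternatives. CHD7, the deleted gene, fell in both mutants, by -1.91 and -0.65 on the log2 scale, and the difference of -1.26 was called in the same test (edgeR, adjusted p = 3.53e-05).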

How the results depend on the processing

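The 5 homozygous calls kept their direction under every alternative run and were all kept under the other scalings and filters, DESeq2, limma-voom and the length offset. Tested against 1.5-fold, the genes called were 281, 89 and 67 for the homozygous and heterozygous cells against wild type and for the mutants against each other (1293, 313 and 372 otherwise), and the members called 0, 0 and 0 (5, 0 and 1 otherwise). Leaving out each library gave 651 to 2118, 130 to 624 and 141 to 377 genes and 2 to 5, 0 to 1 and 0 to 1 members; the lowest counts came without wild-type replicate 2, wild-type replicate 3 and heterozygous replicate 2, the highest without homozygous replicate 3. DESeq2 called 574 genes and 1 member in heterozygous cells and 849 genes and 3 members between the mutants. The fit of 6 libraries alone called 604 genes and 1 member, and 177 genes and 0 members. No filter, or the length offset, called 1 member in heterozygous cells. The labels do not say whether replicate numbers pair the libraries. Correlations of same-numbered libraries ran from -0.195 to 0.245, and those of differently numbered libraries from -0.433 to 0.358. Not every library correlated best with its own number. With 3 libraries per genotype these values cannot decide whether libraries were paired. With the replicate block 1503, 492 and 461 genes and 5, 1 and 1 members were called, KDM4C in place of ASH2L between the mutants; with length offset and replicate block heterozygous cells had 612 genes and 2 members, and the mutants differed in 639 genes and 4 members. The cause of these shifts was not tested. Of 960 values of single genes under alternatives, 45 lost a call, 25 gained one, and 0 called values changed sign. Another 867 kept their call or, uncalled in both fits, moved by less than their SE. The last 23 were uncalled in both fits and moved by more than their SE. A member had at least 57 counts in each library.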

Other observations

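The genes on either side of the called members were read as well, as the 3 nearest tested protein-coding genes on each side, 30 in all. They were picked by order along the chromosome without a limit on distance. In homozygous against wild-type cells 1 rose and 5 fell (edgeR), where 3.5% of all tested genes rose and 4.18% fell, and they are named here after their values were seen. In heterozygous against wild-type cells 0 rose and 1 fell (C1orf21, adjusted p = 0.0238), where 0.82% of all tested genes rose and 1.04% fell. Between the mutants 0 rose and 3 fell (C1orf21, DNAJC1 and BAG4, adjusted p = 0.019, 0.0437 and 0.0259), where 0.986% of all tested genes rose and 1.22% fell. MGST2, a microsomal glutathione transferase gene next to SETD7, rose (log2 fold change 0.58, adjusted p = 0.00279) while SETD7 fell. Before BMI1 on its chromosome, the co-chaperone gene DNAJC1 (-0.59, edgeR adjusted p = 0.000879) and MLLT10 (-0.48, adjusted p = 0.0429), which encodes a cofactor of DOT1L, also fell. DNAJC1 ends at 22003769 and MLLT10 at 21743630, while BMI1 starts at 22321211. C1orf21, on the RNF2 side list, fell (-1.15, edgeR adjusted p = 5.4e-05). It ends at 184629020, while RNF2 starts at 185045364. The receptor phosphatase gene PTPRD, on the KDM4C side list, fell as well (-0.47, edgeR adjusted p = 0.0251). PTPRD spans 8314246 to 10612723, while KDM4C ends at 7175648. Near ASH2L, BAG4, which encodes a co-chaperone of HSP70, fell (-0.37, adjusted p = 0.0451) while ASH2L rose. COMMD3, the nearest gene upstream of BMI1, was not called (-0.42, adjusted p = 0.388).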
